A study of Homo sapiens with 40 samples.

Results

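The BCL2 family decides whether a cell opens the outer membrane of its mitochondria and dies. Counts of 10 genes of this family, chosen by symbol among the 60279 genes listed in each count table, were followed across single cells of T47D, an established human breast cancer line that carries the markers of luminal epithelium. The genes were the anti-apoptotic BCL2, BCL2L1 (BCL-XL) and MCL1, the effectors BAX and BAK1, and the BH3-only genes BID, BAD, PMAIP1 (NOXA), BCL2L11 (BIM) and BBC3 (PUMA). Each of the 10 was listed under 1 Ensembl identifier in every table. The cells were at passage 10 with no treatment described, were sorted as EpCAM+/CD49f+ and were processed with 3 plate-based full-length protocols. Whether a single culture supplied all 3 protocols is not stated. G&T (Genome & Transcriptome sequencing) separates mRNA from DNA on beads and uses a modified SMART-seq2 chemistry, Takara is the SMART-seq HT kit, and NEB is the NEBNext Single Cell/Low Input kit, which was run with more PCR cycles. SMART-Seq3 cells were not analysed here.

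Of 40 deposited cells (13 G&T, 13 Takara, 14 NEB), 33 were kept, 11 for each protocol. The 7 removed cells were wells C2 and F1 of G&T, C2 and F1 of Takara, and B2, F1 and F2 of NEB. Reads on genes ranged from 658154 to 1166633 per kept G&T cell, from 818512 to 1287911 per Takara cell and from 624772 to 963816 per NEB cell. ERCC spike-ins, synthetic RNAs added to each lysate, took 1.37% to 2.75% of a G&T library, 0.538% to 1.33% of a Takara library and 5.66% to 18.9% of a NEB library. Cells of 1 protocol shared a plate and a sequencing run, and run and protocol cannot be told apart. A protocol is therefore 1 sample, no test was made, and SDs and ranges are those of cells sequenced together. All 8 luminal markers had reads in each protocol, and the 2 with the largest level summed over the protocols were keratins. KRT19 stood at 2756, 7986 and 566 CPM (reads per 1e6 reads on genes) and KRT8 at 4237, 5234 and 84.8 CPM in G&T, Takara and NEB. Markers of other cell types were mostly low, and not all at 0. In G&T, PTPRC (leukocytes) had 2 reads, and PECAM1 and VWF (endothelium) had 12 and 16, all at 0 in Takara and NEB. ACTA2 (basal) had 15, 362 and 0 reads in G&T, Takara and NEB. In Takara it had reads in all 11 cells and stood at 30.9 CPM pooled, with 141 CPM in cell E2. COL1A1 (fibroblasts) had reads in 11, 10 and 9 cells of G&T, Takara and NEB. Their part in the family's levels was not tested.

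BCL2 proteins act by binding one another. BAX and BAK1 form the pore that lets cytochrome c out, the anti-apoptotic proteins hold them in check, and the BH3-only proteins, which answer to stress and death receptors, bind the anti-apoptotic proteins or activate the effectors directly. In luminal breast cancer BCL2 is known as a gene that the estrogen receptor switches on. The contact between the proteins runs through the BH3 helix, which carries a leucine, 3 further residues, a small residue (glycine, alanine or serine) and an aspartate. The DNA that encodes it is shown because it is the stretch that all 10 genes share and through which the groups meet. Each stretch has 27 bases in the coding direction, from the canonical transcript of GENCODE release 44 on GRCh38. Capitals mark the leucine codon and the codons of the small residue and the aspartate.
BCL2: accCTCcgccaggccGGCGACgacttc
BCL2L1: gcgCTGagggaggcaGGCGACgagttt
MCL1: accTTAcgacgggttGGGGATggcgtg
BAX: tgtCTCaagcgcatcGGGGACgaactg
BAK1: cagCTCgccatcatcGGGGACgacatc
BID: cacCTCgcccaggtcGGGGACagcatg
BAD: gagCTCcggaggatgAGTGACgagttt
PMAIP1: caaCTCaggagatttGGAGACaaactg
BCL2L11: gagTTGcggcgtattGGAGACgagttt
BBC3: cagCTGcggcggatgGCGGACgacctc
BAD has serine and BBC3 alanine at the small residue, and the other genes have glycine. The stretch lies within 1 exon in every gene, for example at chr18:63318355-63318381 in exon 2 of BCL2 (minus strand), chr20:31721928-31721954 in exon 2 of BCL2L1 (minus strand), chr19:48955784-48955810 in exon 3 of BAX (plus strand) and chr22:17739421-17739447 in exon 4 of BID (minus strand). The GC content of the stretch ran from 44.4% in PMAIP1 to 74.1% in BCL2 and BBC3. BID holds a second match to the same residues nearer its start, and the one printed encodes its known BH3 helix. The pattern is short, and 34.0% of 20457 canonical coding sequences encode it at least once.

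A kept G&T cell had reads for 7.36 ± 1.36 of the 10 genes (SD, n = 11 cells, range 6 to 10) and a Takara cell for 7.82 ± 1.08 (6 to 9). A NEB cell had reads for 2.27 ± 0.786 (1 to 4). The NEB range lay below both others. After thinning every cell to the 624772 gene reads of the smallest one, the expected numbers were 7.14, 7.59 and 2.25 in G&T, Takara and NEB. Over all genes, a cell had reads for a mean of 11348, 11178 and 5277 genes in G&T, Takara and NEB.

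**Figure D1:**
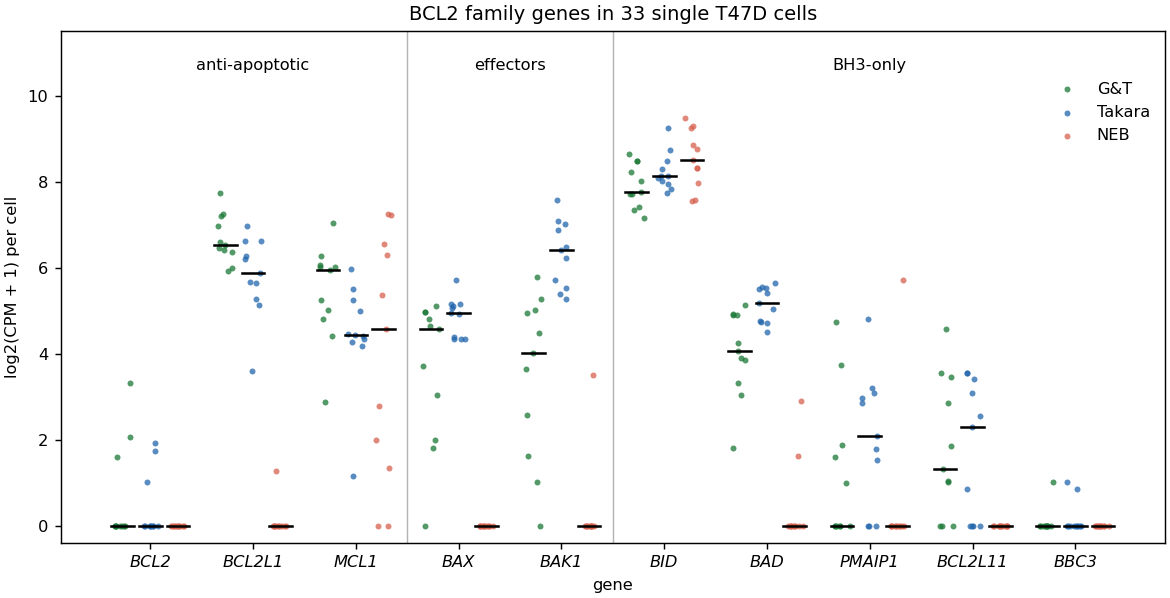
Level of each gene in each of the 33 kept cells, as log2(CPM + 1), with 11 points per protocol and a black bar at the median. BID was high in all cells, whereas for BCL2L1, BAX, BAK1 and BAD most NEB points lay at 0 and every Takara point lay above every NEB point of the same gene.

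Among the anti-apoptotic genes, BCL2L1 and MCL1 were the ones detected throughout G&T and Takara, and BCL2 itself was close to the limit of detection. BCL2 (ENSG00000171791; chromosome 18, 63123346 to 63320128) was detected in 3 G&T cells (6 in D1, 3 in E2 and 2 in C1) and in 3 Takara cells (3 in C1, 3 in E1 and 1 in B1). Pooled over the cells, G&T gave 1.16 CPM (95% Poisson interval 0.578 to 2.07) and Takara 0.597 CPM (0.240 to 1.23). No NEB cell had a BCL2 read, for which the upper limit is 0.376 CPM (3 reads over the 11 cells). The G&T level was 3.08-fold that limit, and the 95% interval of its ratio over NEB starts at 2.11. These intervals cover counting error only, since reads without molecular identifiers are not independent molecules. Cell D1 held 54.5% of the G&T reads, and without it the level was 0.566 CPM.

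BCL2L1 (ENSG00000171552; chromosome 20, 31664452 to 31723989), which encodes BCL-XL, had reads in all 11 G&T and all 11 Takara cells. The cells spanned 59.3 to 212 CPM in G&T (median 91.3) and 10.996 to 123 CPM in Takara (median 57.7). In NEB a single read was found, in cell H2. Pooled levels were 113, 66.7 and 0.125 CPM, and the G&T level was 897-fold that of NEB (95% interval 161 to 35471) and the Takara level 532-fold (95.1 to 21020). Every G&T cell and every Takara cell lay above every NEB cell. Between G&T and Takara the cells overlapped, and the ratio of 1.69 (1.54 to 1.85) was smaller than the spread between cells. In GENCODE, 41.3% of the exon bases of BCL2L1 overlap the antisense gene ABALON, which the tables do not list, and the strand setting of the counts was not stated.

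MCL1 (ENSG00000143384; chromosome 1, 150560895 to 150579738), a short-lived protein that binds BAK1 and NOXA, had reads in most NEB cells, where BCL2L1 had 1 read and BCL2 had 0. Cells ranged from 6.28 to 131 CPM in G&T (median 60.3), from 1.22 to 61.7 CPM in Takara (median 20.5) and from 0 to 152 CPM in NEB (median 22.8). Reads were present in 11, 11 and 9 cells. Pooled levels were 54.5, 26.8 and 51.0 CPM in G&T, Takara and NEB, with an SD over cells of 34.2, 16.2 and 59.3, so all 3 protocols overlapped. The NEB cells were the most uneven, with a coefficient of variation of 120% against 64.6% in G&T and 61.2% in Takara. The ratio of G&T over Takara was 2.03 by CPM, and on the log2(CPM + 1) scale it was 0.998, just under the 2-fold line. Leaving out any 1 of 9 of the 22 cells (A1, D1, E2, G1 or H1 of G&T, or A2, B1, E2 or G1 of Takara) took it over the line, to 1.02 to 1.19.

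Both effectors were present in nearly every G&T and Takara cell and nearly absent from NEB cells. BAX (ENSG00000087088; chromosome 19, 48954815 to 48961798), which moves to mitochondria when activated, was detected in 10 G&T cells (0 to 33.4 CPM, median 22.8) and 11 Takara cells (19.2 to 51.4 CPM, median 29.9). G&T cell H1 was the one without a read. BAX had 0 reads in NEB. The pooled 16.9 CPM of G&T and 29.4 CPM of Takara were 45.0-fold and 78.0-fold the NEB limit for a count of 0. The 95% intervals of the ratios over NEB start at 36.2 for G&T and 63.1 for Takara. The CV of BAX over cells was 72.8% in G&T and 33.4% in Takara.

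BAK1 (ENSG00000030110; chromosome 6, 33572547 to 33580293), the effector that resides in the mitochondrial membrane, was the 1 family gene past 2-fold between Takara and G&T on the log2(CPM + 1) scale. Takara cells held 37.3 to 188 CPM (median 84.7), G&T cells 0 to 53.6 CPM (median 15.2), and the NEB reads, 10 in all, came from cell D1. The pooled 90.0 CPM of Takara was 4.83-fold that of G&T (18.6 CPM; 95% interval 4.12 to 5.70) and 71.8-fold that of NEB (1.25 CPM; 38.9 to 150). The gap of the means of Takara and G&T exceeded the larger SD over cells (47.7 CPM), though the highest G&T cells overlapped the lowest Takara cells. The annotated pseudogene BAK1P1 had 6 reads in Takara and 0 in the others, and BAK1P2 had none.

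**Figure D2:**
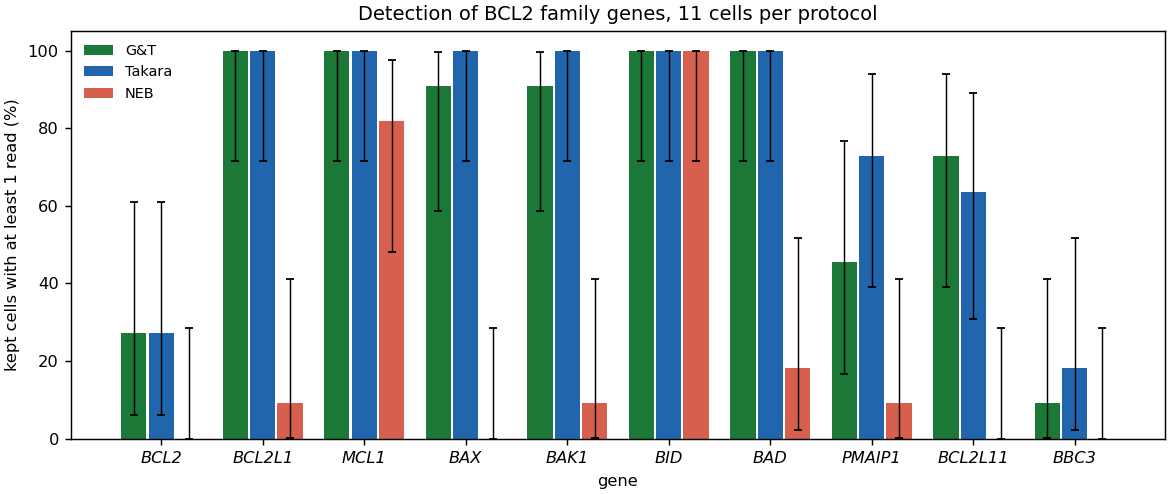
Share of the 11 kept cells of each protocol with at least 1 read of each gene, in percent, with exact 95% binomial intervals that cover counting error only. BID reached 100% in all 3 protocols. BAX, BCL2L11, BCL2 and BBC3 had no NEB bar.

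The BH3-only genes split most clearly between one abundant gene and 4 sparser ones. BID (ENSG00000015475; chromosome 22, 17734138 to 17774770), which caspase-8 cuts to carry the signal of death receptors to mitochondria, was the 1 gene with reads in all 33 cells. Its cells ranged from 142 to 398 CPM in G&T (median 214), from 213 to 604 CPM in Takara (median 281) and from 187 to 709 CPM in NEB (median 363). The 3 ranges overlapped throughout. Pooled levels were 252 (95% interval 242 to 262), 318 (307 to 328) and 416 CPM (402 to 430), and each gap lay within the larger SD over cells. NEB stood 1.65-fold above G&T and 1.31-fold above Takara by CPM. Per 1000 ERCC reads NEB was lowest, with 13.03, 32.8 and 3.18 BID reads in G&T, Takara and NEB.

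BAD (ENSG00000002330; chromosome 11, 64269830 to 64284704), which growth factor signalling holds inactive by phosphorylation, had reads in all G&T cells (2.48 to 34.1 CPM, median 15.6) and all Takara cells (21.5 to 49.1 CPM, median 35.4). NEB had 6 reads, 4 in cell G2 and 2 in D1. Takara (35.9 CPM pooled) was 47.8-fold NEB (21.8 to 131) and G&T (18.3 CPM) 24.3-fold (10.96 to 67.2). Without G2 the NEB level fell from 0.752 to 0.272 CPM. The log2 ratio of G&T over Takara was -0.94 and passed -1 when A2, B1 or E2 of G&T was left out. In GENCODE, 23.7% of the exon bases of BAD overlap GPR137 on the opposite strand, a gene with 142, 132 and 0 reads in G&T, Takara and NEB, and with the strand setting not stated, reads of the overlap cannot be told apart.

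PMAIP1 (ENSG00000141682; chromosome 18, 59899996 to 59904305) encodes NOXA, the partner of MCL1, and is a target of p53. Reads were present in 5 G&T cells, 8 Takara cells and 1 NEB cell, yet pooled levels were 3.37, 5.38 and 4.64 CPM. All 37 NEB reads lay in cell E1 (51.8 CPM), the highest level of any of the 33 cells, and without E1 the NEB level was 0. In G&T, cell D1 held 53.1% of the reads, and without D1 the level was 1.70 CPM. A pooled level close between protocols thus rested on 1 NEB cell.

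BCL2L11 (ENSG00000153094; chromosome 2, 111119378 to 111168444) encodes BIM, an activator of BAX and BAK1. It was found in 8 G&T cells (highest 22.8 CPM, in B2) and 7 Takara cells (highest 10.7 CPM, in D1), and in 0 of 11 NEB cells, for which the exact 95% interval reaches 28.5%. Pooled levels were 4.42 and 4.52 CPM, 11.8-fold and 12.02-fold the NEB limit of 3 reads. The 95% intervals of the ratios over NEB start at 9.14 and 9.44. An antisense transcript of the locus, MIR4435-2HG, overlaps 10.8% of its exon bases and had 121, 79 and 27 reads in G&T, Takara and NEB. BBC3 (ENSG00000105327; chromosome 19, 47220822 to 47232766), another p53 target, had 1, 2 and 0 reads in G&T, Takara and NEB, which is under the limit of 3 reads, and no comparison was made for it.

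Across the 3 pairs of protocols, which share their samples, genes with at least 1 CPM in either protocol were compared on the log2(CPM + 1) scale, which understates the change of low genes. A gene was counted from a 2-fold difference. Between G&T and Takara, 1 of 9 tested family genes (BAK1) was higher in Takara, against 17.0% of all genes tested, and 0 of 9 were higher in G&T, against 25.7%. Against NEB, 6 of 9 were higher in G&T (BCL2, BCL2L1, BAX, BAK1, BAD and BCL2L11), where 48.7% of all genes were. In Takara 5 of 8 were higher than in NEB (the same genes without BCL2, which was below 1 CPM), where 43.7% of all genes were. None was higher in NEB, against 19.5% of genes over G&T and 24.3% over Takara. No test was made of the family counts against these shares of all genes. BCL2 in G&T rested on single cells, since without D1 or E2 its log2 ratio over NEB was 0.65 or 0.95. PMAIP1 passed 2-fold, higher in NEB than in G&T without G&T D1 (log2 -1.06) and lower in NEB without NEB E1 (2.13 for G&T and 2.67 for Takara). In Takara over NEB, MCL1 passed -1 when Takara A2 or NEB A1, B1, C1, E2 or H2 was left out.

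With cell ranges in place of pooled levels, 4 of 8 genes (BCL2L1, BAX, BAK1 and BAD) had every Takara cell above every NEB cell, which held for 8.41% of all genes tested. For G&T over NEB it was 1 of 9 (BCL2L1), against 3.31% of genes. No family gene separated G&T from Takara in this way, against 0.669% of genes for G&T above and 1.26% for Takara above. None had every NEB cell above every G&T cell (1.03% of genes) or every Takara cell (1.61%). Reads in every kept cell were found for 4 of the 10 genes in G&T (BCL2L1, MCL1, BAD and BID; 24.9% of all genes with reads). Takara had 6 such genes (BAX and BAK1 in addition; 36.7%). NEB had 1 (BID), of the 6 family genes with reads there, against 11.1% of all genes with reads.

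Scaling set the direction of several of these ratios. With reads on ERCC spike-ins as the denominator, the log2 ratio over all genes shifted at its median by -0.97 (G&T over Takara), 2.11 (G&T over NEB) and 3.17 (Takara over NEB). Of all genes past 2-fold, the share higher in the first protocol went from 60.2% to 27.4%, from 71.5% to 98.4% and from 64.2% to 98.5%. On that scale 5 of the family genes were higher in Takara than in G&T (BAX, BAK1, BAD, BID and PMAIP1), where 42.8% of all genes were. All but BBC3 were higher in G&T than in NEB, as were 88.9% of all genes, and in Takara than in NEB, as were 92.4%. MCL1 then stood at 2.82, 2.76 and 0.390 reads per 1000 ERCC reads in G&T, Takara and NEB. Its distance from BCL2L1, BAX, BAK1 and BAD within the NEB cells does not depend on this choice.

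Levels of different genes were compared per kilobase of exons, as CPM per kb. All annotated exons of a gene were counted, 2587 bases for BAX against 795 in its canonical transcript, and 2212 against 2170 for BAK1. BID came first in every protocol, at 57.0, 71.9 and 94.1 in G&T, Takara and NEB. In G&T it was followed by BCL2L1 (26.8), and both steps, from BID to BCL2L1 and from BCL2L1 to BAD (10.7), exceeded the larger SD over cells. From BAD through MCL1 (8.76) and BAK1 (8.42) to BAX (6.55), no step exceeded that spread, and the step from BAX to PMAIP1 did. In Takara BAK1 (40.7) took the second place, before BAD (21.0), BCL2L1 (15.9), BAX (11.3) and MCL1 (4.31), and only the steps from BID to BAK1 and from BAX to MCL1 exceeded the SD. In NEB the second place fell to MCL1 (8.20), with PMAIP1 at 2.12 and BAK1, BAD and BCL2L1 under 1. The last places went to PMAIP1, BCL2L11, BCL2 and BBC3 in G&T and Takara.

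**Figure D3:**
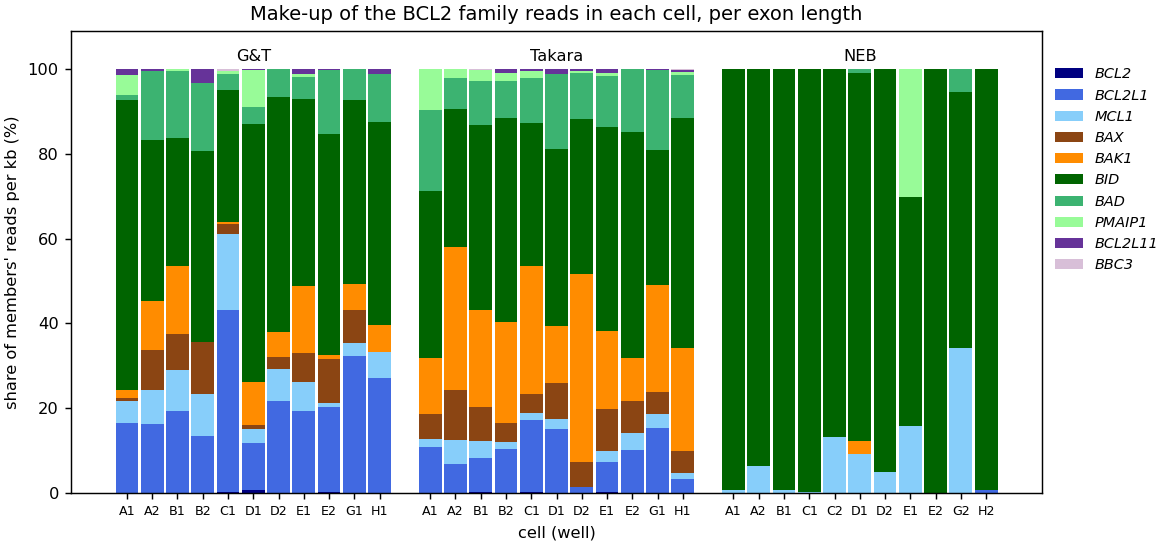
Make-up of the family in each kept cell, as the share of each gene in the summed reads per kb of the 10 genes (percent), 1 stacked bar per cell named by its well. BID fills most of every NEB bar, and the effectors (brown and orange) take a larger mean share in Takara than in the other protocols.

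Within a cell the make-up of the family needs no scaling between libraries. The anti-apoptotic genes held 29.0% ± 12.1 (SD, n = 11 cells) of the reads per kb in G&T cells, 12.2% ± 5.44 in Takara cells and 7.77% ± 10.4 in NEB cells. The effectors held 12.5% ± 7.55, 30.6% ± 10.0 and 0.263% ± 0.872. BID alone held 47.004% ± 11.8, 42.2% ± 8.08 and 88.7% ± 16.3. The gap of G&T and Takara in both the anti-apoptotic and the effector share exceeded the larger SD, whereas their BH3-only shares (58.4% ± 11.99 and 57.2% ± 9.05) did not differ beyond it. G&T cell C1 stood out with 61.2% anti-apoptotic reads, most of them BCL2L1 (43.1%). NEB cell G2 had the largest MCL1 share (34.2%) and NEB cell E1 the largest PMAIP1 share (30.1%), while in NEB cell E2 BID was the only gene of the family with reads.

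The family genes were also set against one another from cell to cell. Over the 11 cells of a protocol, Spearman's rho of CPM for the 15 pairs of the 6 genes with reads in at least 9 cells ranged from -0.26 (BAD and BID) to 0.73 (BAX and BAD) in G&T, with a median of 0. In Takara it ranged from -0.42 (BCL2L1 and BAK1) to 0.71 (MCL1 and BAX), with a median of 0.02. Points of 1 protocol share a run, and 11 cells give no more than a description. For BID, the gene with the most cells, the 1287 genes with reads in all 33 cells were ranked by rho, where the median gene had 0.11. The highest were PCMT1, a protein repair methyltransferase (0.63 over all cells; 0.54, 0.41 and 0.46 in G&T, Takara and NEB), MSMO1 (0.61; 0.29, -0.05 and 0.86) and FDPS (0.61; 0.51, -0.05 and 0.81), both enzymes of sterol synthesis.

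The transcripts of the 10 genes differ widely in base composition, and the protocols differed with it. The GC content of the canonical transcript is 65.8% in BAD, 60.8% in BAX, 58.6% in BAK1 and 56.6% in BCL2L1, the 4 genes with every Takara cell above every NEB cell. It is 48.0% in BID, 45.1% in MCL1 and 36.7% in PMAIP1, whose pooled NEB levels lay within 2-fold of both other protocols, for PMAIP1 through 1 cell. BCL2 (44.4%) and BCL2L11 (45.5%) were low in G&T and Takara and had 0 reads in NEB. BCL2L11 was still past 2-fold over NEB, at log2 2.44 in G&T and 2.47 in Takara. BBC3 has the highest GC content of the 10 (69.7%) and too few reads to compare. In the coding sequence alone, GC content does not part the genes in this way. It is 67.3% in BAD, 61.1% in BAX, 59.4% in BAK1 and 56.9% in BCL2L1. For MCL1 it is 61.0%, for BID 58.5% and for PMAIP1 54.3%. GC content below is again that of the canonical transcript. Over 13376 genes with a GC value (98.8% of those tested), the log2 ratio of Takara over NEB had Spearman's rho of 0.58 with GC content across genes, which are not independent replicates. Genes were put in 3 equal groups by GC content. In the group with the highest GC content, which held BCL2L1, BAX, BAK1 and BAD, the median log2 ratio was 2.10 and 76.4% of genes were at least 2-fold higher in Takara. In the middle group, with MCL1, BID and BCL2L11, the median was 0.49 and 39.9% were higher in Takara. In the lowest group, with PMAIP1, the median was -0.81 and 15.3% were higher in Takara. For G&T over NEB rho was 0.54, and for G&T over Takara it was -0.11. The part of GC content in the NEB levels of these genes was not tested.

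**Figure D4:**
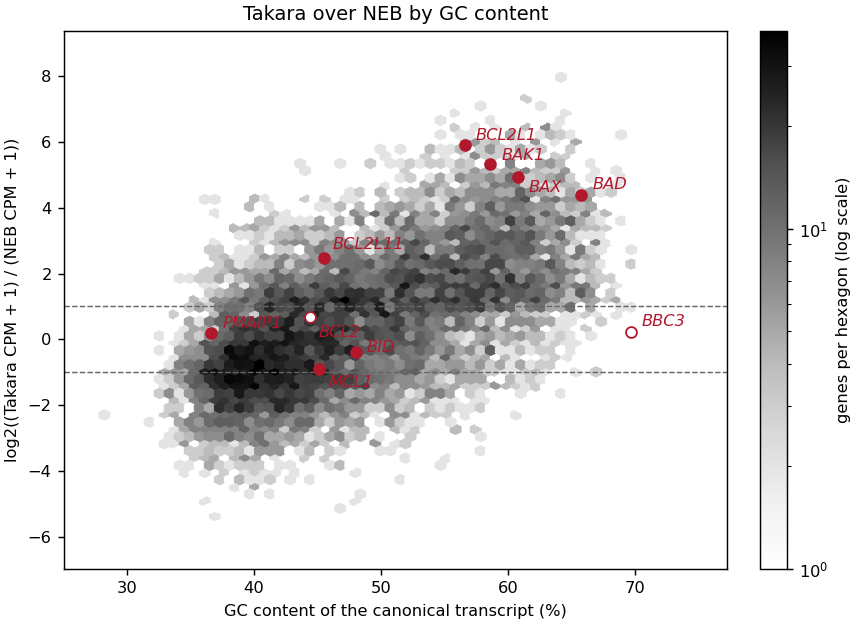
Log2 ratio of Takara over NEB, from pooled CPM + 1, against GC content of the canonical transcript (percent), with all tested genes as gray hexagons (darker for more genes, log scale), dashed lines at 2-fold and the 10 family genes in red (open where under 1 CPM in both). BCL2L1, BAK1, BAX and BAD lie at the upper right and PMAIP1, MCL1 and BID between the dashed lines. BCL2L11 lies above the upper dashed line at a GC content close to that of MCL1.

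Other genes of the pathway gave the surroundings of these results. Of 13 further BCL2 family and BH3 genes, BCL2A1, BCL2L10 and BCL2L14 had 0 reads in all protocols. At least 2-fold higher than in NEB were 5 of 8 tested in G&T (48.7% of all genes tested) and 5 of 8 in Takara (43.7%). Higher in NEB in both comparisons were 2 of 8 (HRK and BNIP3L), against 19.5% of genes over G&T and 24.3% over Takara. HRK was higher through cell C2, which held all of its 125 NEB reads. BNIP3L, a mitophagy receptor, stood at 77.4, 86.2 and 283 CPM in G&T, Takara and NEB, and BCL2L13 at 52.6, 71.6 and 22.1, where the NEB level without cell B1 was 8.36 CPM. Downstream of the pore, 6 of 16 genes were higher in Takara than in G&T (17.0% of all genes tested) and 2 lower (25.7%). The voltage-dependent channel VDAC2, which binds BAK1, stood at 289.8, 716 and 654 CPM in G&T, Takara and NEB, and VDAC3 at 233, 710 and 728. For both, every Takara cell was above every G&T cell, which held for 1.26% of all genes tested and did not hold for BAK1. APAF1 and CASP9, the scaffold and the caspase of the apoptosome, had 0 reads in NEB. Among 14 genes of upstream control and turnover, 7 were higher in NEB than in Takara (24.3% of all genes tested) and 4 lower (43.7%). ESR1, the estrogen receptor, stood at 235, 73.1 and 877 CPM in G&T, Takara and NEB, and PGR at 428, 164 and 1068. These values are by CPM and move with the scaling as those of the family do.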

How the data were processed

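Raw read counts per gene and cell were used as deposited. The authors trimmed reads with Trim Galore, aligned them to GRCh38 with STAR and merged STAR's counts per gene of each protocol's cells into 1 table, without normalization, molecular identifiers or filters. The annotation release and the strand setting are not given in the sources used here. The 7 cells outside the study's thresholds (1000 genes, library of 600000, 30% mitochondrial and 25% ERCC reads) were left out. The family genes and lists were chosen with earlier results of these data known, and the comparison with GC content was added after values were seen.

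Reads were summed over the kept cells and given as CPM of reads on genes with exact 95% Poisson intervals. Log2 ratios used a pseudocount of 1 CPM and genes with at least 1 CPM in either protocol. For a count of 0 the upper limit was set at 3 reads. Depth was equalised by exact thinning to 624772 reads. Lengths, GC content and coding sequences came from GENCODE 44, which holds 56104 of the listed genes. All family genes were named, and of each pathway list and the luminal list the 2 genes with the largest pooled CPM. Markers of other cell types, genes at 0 and further called genes of the lists are named in addition, chosen after their values were seen. Cells were grouped by the protocol in their labels and no test was made, as protocols have 1 plate each. No cells had identical counts. Steps were tested on simulated data. Alternatives covered the cells kept, pooling, denominators, pseudocounts, TMM scaling (edgeR 4.0.16), median-of-ratios scaling, detection limits, gene length and leaving out each cell. Python 3.11.15, numpy 2.4.6, pandas 2.3.3, scipy 1.17.1, Biopython 1.88, matplotlib 3.10.9 and R 4.3.3 were used.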

Additional observations from a re-analysis of the deposited data

Results flagged for a closer look

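Of the 7 removed cells, 3 held more family reads than the 3-read limit of a count of 0. G&T cell C2 had 76 reads on 5 of the 10 genes (BCL2L1, MCL1, BAX, BAD and BID), of which 21 were BID and 21 BCL2L1. G&T cell F1 had 182 reads on 6 genes, the same 5 and BAK1, of which 84 were BID. NEB cell F2 had 148 reads, all on BID. The comparisons above do not use these cells. Takara cell C2 had 2 reads, both on BAK1, and the other removed cells had 0.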

How the results depend on the processing

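No family gene called at 2-fold was called the opposite way under the alternatives run. Some genes within 2-fold were called in opposite directions by different alternatives, namely MCL1 in Takara over NEB (-1.03 with median-of-ratios scaling, 2.72 per ERCC read) and PMAIP1 in G&T over NEB (-1.06 without G&T D1, 2.13 without NEB E1). BID in G&T over NEB went from -0.72 to 2.03 per ERCC read. The number of family genes at least 2-fold higher in G&T than in Takara went from 0 to 1 (MCL1) with a pseudocount of 0.1 CPM. The number higher in Takara than in G&T went from 1 to 2 with median-of-ratios scaling (BAD in addition) and to 5 per ERCC read. The number higher in Takara than in NEB went from 5 to 9 per ERCC read, and the number higher in NEB than in Takara from 0 to 1 (MCL1) with median-of-ratios scaling, which moved the median gene by -0.10, -0.21 and -0.12 in the 3 pairs. The cause was not tested. With at least 5 reads as detection, kept cells had 5.91, 6.82 and 1.73 of the 10 genes in G&T, Takara and NEB. With at least 1 read, all deposited cells had 7.08, 6.69 and 1.86. Leaving out each cell gave 0 to 1 genes for G&T over Takara, 1 to 2 for Takara over G&T, 5 to 7 for G&T over NEB, 0 to 1 for NEB over G&T, 5 to 6 for Takara over NEB and 0 to 1 for NEB over Takara. It gave anti-apoptotic shares of 26.1% to 30.8% in G&T, 11.1% to 13.4% in Takara and 6.36% to 8.71% in NEB. With the longest transcript as length, BID was first in all 3 protocols. TMM scaling changed no 2-fold call of a family gene. A pseudocount of 5 CPM left BCL2L11 within 2-fold of NEB in both comparisons (0.91 and 0.93) and BCL2 in G&T (0.30). No paired analysis was possible because the cells of different protocols share no label beyond a well position and the results come from no test. BCL2 and BBC3 had at most 11 reads in a protocol, and 1 run per protocol limits every comparison.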
